A study of Mus musculus with 2 samples.

Results

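The genes of the autophagy machinery were followed across pseudoblastocysts, the study's name for cavitated embryos in which the presence of an inner cell mass was not assessed. The 41 listed genes, out of 52366 in the count table, were chosen by name and grouped by the step in which their products act: 5 of initiation, 6 of nucleation, 9 of membrane supply, 10 of conjugation, 5 of the ATG8 family, 5 cargo receptors and 1 tethering factor. Zygotes came from B6D2F1 oocytes fertilised in vitro with ICR sperm, and the zona pellucida was removed from every embryo used here. The 4 stages were 1C embryos (whole zygotes freed of the zona at 5 h postinsemination, hpi) and embryos grown from a single blastomere taken at the 2-cell stage (2CB, 24 hpi), the 4-cell stage (4CB, 48 hpi) or the 8-cell stage (8CB, 48 hpi). Each was cultured alone to 96 hpi, and 6 embryos per stage were sequenced by CEL-Seq2, which counts the 3′ ends of transcripts with unique molecular identifiers (UMIs). A 1C embryo is a whole conceptus, whereas the other 3 stages are single-blastomere embryos, and nothing in the labels ties sister blastomeres of one parent to each other, so that p-values measure the spread between these embryos.

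Autophagy encloses cytoplasm in a double membrane and delivers it to the lysosome. The ULK1 kinase complex starts the process, a phosphatidylinositol 3-kinase marks the membrane with PI3P, lipid-transfer and scramblase proteins let it grow, and a pair of ubiquitin-like conjugation systems attach ATG8 proteins to it, to which cargo receptors bind. In the mouse, autophagy is known to be induced after fertilisation and to be needed for development beyond the first cleavages, when maternal proteins are broken down.

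The labels put 1C with 8CB embryos in one library pool and 2CB with 4CB embryos in another, so that any difference between 1C or 8CB and 2CB or 4CB cannot be told apart from a difference between pools. Total UMIs per embryo ranged from 70941 to 1507471. The range was 332867 to 1507471 (median 519932) in 2CB and 132725 to 1130360 (median 216325) in 4CB embryos. No 1C or 8CB embryo exceeded 368348, and the medians of these stages were 244312 and 313283. Of the 9 trophectoderm markers, 6 were higher and 2 (Tfap2c and Hand1) lower in 2CB and 4CB than in 1C and 8CB embryos. Their summed CPM (UMI counts scaled to an embryo total of 1000000) was between 741 and 1203 for 1C and 8CB and between 2502 and 5280 for 2CB and 4CB embryos, and Elf5 had 1 UMI in all 12 1C and 8CB embryos together against 1154. Of the epiblast markers, Sox2 and Tdgf1 were higher and Nanog, Klf2 and Esrrb lower, and of the primitive endoderm markers Sox17, Pdgfra and Dab2 were higher and Gata6 lower. Pou5f1, which blastocysts express, had 13 UMIs in all 1C and 8CB and 20 in all 2CB and 4CB embryos. Oocyte markers summed to at most 117 CPM in any embryo, and of 5 cumulus markers only Tnfaip6 had any UMIs. The part that these cell type differences play in the results on autophagy genes was not tested, and in whole embryos fewer cells of a type and less RNA per cell cannot be told apart.

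The promoter windows of RefSeq (250 bases before to 50 after a transcript start, build GRCm38.p6, the build of the count table) were searched on both strands for CACGTG (the E-box core), TCACGTGA (the CLEAR core bound by TFEB and TFE3, which contains CACGTG) and GTAAACA (FOXO). A window was found for 33 of the 41 genes, 39 windows in all. CACGTG was in 4 of these 39 windows (10.3%) and in 7.15% of all 32851 windows. TCACGTGA was in 1 of the 39 (2.56%) and in 0.974% of all windows. GTAAACA was in 0 of the 39 and in 3.65% of all. The 4 windows with CACGTG are shown because the genes differ in the counts below: Atg14 and Atg7 were lower in 2CB and 4CB embryos, Atg5 was not called and Atg3 had too few UMIs to pass the filter. Each is written 5′ to 3′ along the gene, from 250 bases before the start to 10 after it, with the matches in capitals.
Atg14, chr14:47568425-47568684, - strand: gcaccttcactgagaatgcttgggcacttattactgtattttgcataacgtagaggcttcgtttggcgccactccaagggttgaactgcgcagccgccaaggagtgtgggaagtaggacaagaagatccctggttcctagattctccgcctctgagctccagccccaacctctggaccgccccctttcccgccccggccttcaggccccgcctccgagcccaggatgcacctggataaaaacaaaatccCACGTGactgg
Atg7, chr6:114670846-114671105, + strand: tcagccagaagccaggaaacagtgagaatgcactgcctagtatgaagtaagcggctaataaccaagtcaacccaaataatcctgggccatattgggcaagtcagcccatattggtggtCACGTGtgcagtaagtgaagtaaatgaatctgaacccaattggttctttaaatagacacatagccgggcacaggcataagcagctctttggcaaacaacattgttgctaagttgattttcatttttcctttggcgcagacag
Atg5, chr10:44268089-44268348, + strand: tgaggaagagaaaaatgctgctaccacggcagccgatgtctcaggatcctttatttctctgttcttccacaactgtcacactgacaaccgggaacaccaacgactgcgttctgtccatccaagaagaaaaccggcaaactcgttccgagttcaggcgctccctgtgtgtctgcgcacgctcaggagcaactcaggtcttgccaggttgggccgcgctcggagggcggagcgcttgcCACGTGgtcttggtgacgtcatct
Atg3, chr16:45158579-45158838, + strand: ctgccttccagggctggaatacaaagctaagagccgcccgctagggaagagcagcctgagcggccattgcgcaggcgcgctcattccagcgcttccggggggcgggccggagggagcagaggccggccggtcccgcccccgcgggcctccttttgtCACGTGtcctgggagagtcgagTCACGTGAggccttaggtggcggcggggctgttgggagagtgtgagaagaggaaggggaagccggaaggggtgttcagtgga
The match of Atg14 spans the start itself, and that of Atg5 begins 14 bases before it. The match of Atg7 begins 132 bases before a start that lies inside the span of Atg7 in the count table, downstream of its first base. Atg3 held 2 matches, beginning 94 and 71 bases before the start, of which the one nearer to the start lies within the CLEAR core. A match describes letters and is not a site of binding.

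Counts were compared with the quasi-likelihood test of edgeR on 5940 genes that passed a filter on low counts, and a gene was called at a Benjamini-Hochberg adjusted p below 0.1. Levels are given as CPM, and differences as log2 fold changes with their standard error. Of the 41 genes, 26 passed the filter. The other 15 had 23 to 229 UMIs over all 24 embryos. These were Ulk2, Becn1, Pik3c3, Pik3r4, Ambra1, Wipi1, Atg9a, Atg3, Atg4a, Atg4c, Atg4d, Atg10, Atg16l1, Optn and Epg5. Their UMIs by stage below are not scaled to embryo totals, so more UMIs in a stage need not mean a higher level. All 26 also passed the filter in 1C and 8CB embryos alone, and 24 passed it in 2CB and 4CB embryos alone, the exceptions being Atg2b and Gabarapl1, which entered the test through 1C and 8CB embryos, where they are higher. Of all UMIs, the 41 genes took between 0.671 and 0.876% in a 1C or 8CB embryo and between 0.304 and 0.461% in a 2CB or 4CB embryo, so that the pools did not overlap.

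A difference among the 4 stages was called for 18 of the 26 tested genes, against 47.1% of all 5940. When 2CB with 4CB were set against 1C with 8CB embryos, 19 of the 26 were lower, 2 higher and 5 not called. Over all 5940 genes, 55.3% were called in that comparison, 31.3% higher and 24% lower. Of the 24 that passed the filter in each pool alone, 17 were lower and 2 higher, against 27.7% lower and 22.8% higher of the 3841 genes that did so. This count was added after the data were seen. The median log2 difference was -1.14 over the 26 and 0.12 over all genes tested. For 6 genes (Ulk1, Rb1cc1, Atg14, Tmem41b, Atg4b and Map1lc3a), every 2CB and 4CB embryo was below every 1C and 8CB embryo, and for 0 was every one above. Over all genes these shares were 2.21% and 3.54%. The calls included each tested gene of membrane supply and of initiation, where 3 of 4 were lower and Atg13 higher, while the genes not called were Uvrag, Atg5, Atg12, Gabarap and Nbr1.

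**Figure D1:**
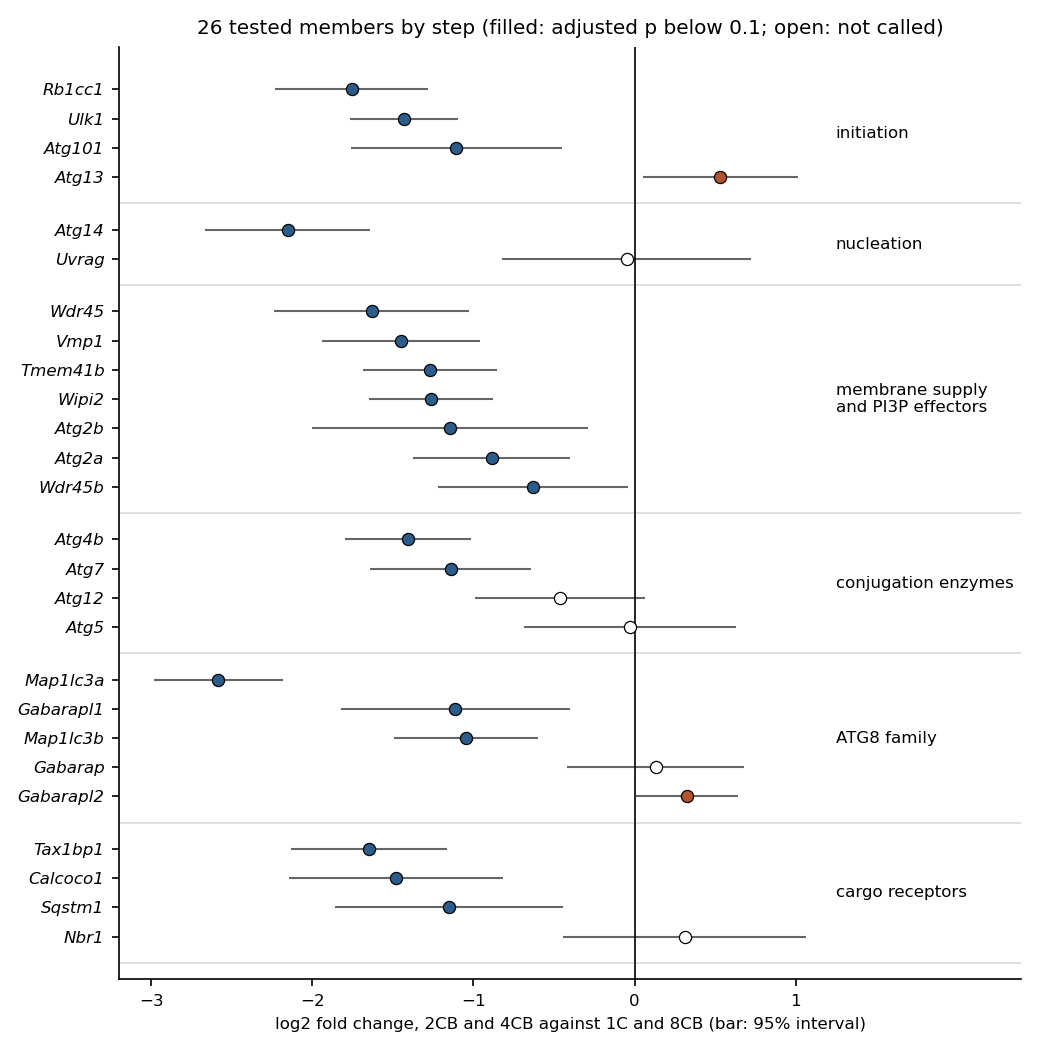
Log2 fold change of the 26 tested autophagy genes between 2CB with 4CB and 1C with 8CB embryos (x axis, negative where 2CB and 4CB are lower) with 95% intervals, by step. Blue points are genes called lower, orange points genes called higher and open points genes not called. Map1lc3a lies farthest left at -2.59, and Atg13 and Gabarapl2 are the 2 orange points.

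Initiation rests on the ULK1 complex, which joins the kinase ULK1 with ATG13, the scaffold FIP200 (encoded by Rb1cc1) and ATG101. Rb1cc1 (ENSMUSG00000025907.14, chr1:6206197-6276648, + strand) had the largest change of the step, with 292 to 542 (median 378) in 1C, 187 to 451 (median 198) in 8CB, 39.8 to 185 (median 118) in 2CB and 39.5 to 128 (median 68.8) in 4CB embryos in CPM. All 2CB and 4CB embryos were below all 1C and 8CB embryos, and the log2 difference was -1.76 ± 0.23 (SE, adjusted p = 4.41e-07). Ulk1 (ENSMUSG00000029512.11, chr5:110784488-110810097, - strand), the kinase itself, was at 666 to 1015 (median 862) in 1C, 620.2 to 1167 (median 801) in 8CB, 289.5 to 503 (median 355) in 2CB and 166 to 448 (median 285) in 4CB embryos. Its embryos also split by pool without overlap, with a log2 difference of -1.43 ± 0.16 (SE, adjusted p = 3.77e-08). Atg101, which stabilises ATG13, changed by -1.11 ± 0.32 (SE, adjusted p = 0.00546), and its 2CB and 4CB embryos overlapped the others.
Atg13 (ENSMUSG00000027244.14, chr2:91674618-91710576, - strand), which ties ULK1 to FIP200, was the one initiation gene called in the other direction. It was at 64.7 to 289 (median 170.3) in 1C, 70.5 to 246 (median 156) in 8CB, 144 to 414 (median 216) in 2CB and 130.5 to 507 (median 207) in 4CB embryos, with wide overlap, and its log2 difference was 0.53 ± 0.24 (SE, adjusted p = 0.0615). That call was lost on leaving out any one of 10 embryos (1C 1, 3 and 4, 2CB 2 and 5, 4CB 5 and 6, and 8CB 1, 2 and 6, with adjusted p up to 0.247). Within each embryo, Atg13 made up 5 to 18.1% (median 11.8%) of the UMIs of the 4 tested complex genes in 1C, 5.68 to 15.5% (median 13.1%) in 8CB, 22.2 to 38.2% (median 32.6%) in 2CB and 23.5 to 53.4% (median 34.6%) in 4CB embryos. The lowest 2CB or 4CB embryo was above the highest 1C or 8CB embryo. Shares sum to 100%, so that fewer UMIs of Ulk1 and Rb1cc1 raise this one, and it is no separate evidence on Atg13. Ulk1 made up 45.8 to 66.2% (median 58.7%) in 1C, 50 to 74% (median 64.4%) in 8CB, 43.2 to 57.9% (median 48.2%) in 2CB and 30.1 to 51% (median 47.3%) in 4CB embryos, with overlap. Ulk2, the second ULK kinase, had 8, 6, 7 and 2 UMIs in 1C, 2CB, 4CB and 8CB embryos.

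In nucleation, the class III kinase VPS34 (Pik3c3) with VPS15 (Pik3r4) and Beclin 1 (Becn1) forms PI3P, and ATG14 directs it to the site where the membrane forms. Atg14 (ENSMUSG00000037526.6, chr14:47540894-47568434, - strand) was at 222 to 720.5 (median 330.1) in 1C, 293 to 529.8 (median 377) in 8CB, 46.4 to 125 (median 85.1) in 2CB and 25.5 to 135 (median 106) in 4CB embryos. Pools did not overlap, and the log2 difference of -2.15 ± 0.25 (SE, adjusted p = 4.99e-08) was the second largest in size of the 26. Uvrag, which takes the place of ATG14 in an endosomal form of the kinase complex, was at 0 to 93.3 (median 33.8) in 1C, 15.6 to 100.2 (median 36.7) in 8CB, 23.5 to 63.5 (median 35.1) in 2CB and 15.1 to 77.8 (median 35.7) in 4CB embryos. Its stages overlapped fully, and it was not called at a log2 difference of -0.05 ± 0.38 (SE, adjusted p = 0.929), with a 95% interval -0.82 to 0.72.
The genes for the core of the kinase had too few UMIs to pass the filter. Becn1 had 4, 16, 7 and 7 UMIs in 1C, 2CB, 4CB and 8CB embryos, Pik3c3 26, 63, 31 and 19, Pik3r4 28, 80, 47 and 15, and Ambra1, which regulates Beclin 1, 18, 61, 33 and 40. Those counts are from 3′ ends, so that few UMIs need not mean few transcripts. In CPM, the medians in the same order of stages were 17.4, 13.0, 12.6 and 10.5 for Pik3c3 and 9.84, 13.8, 11.9 and 23.6 for Ambra1.

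**Figure D2:**
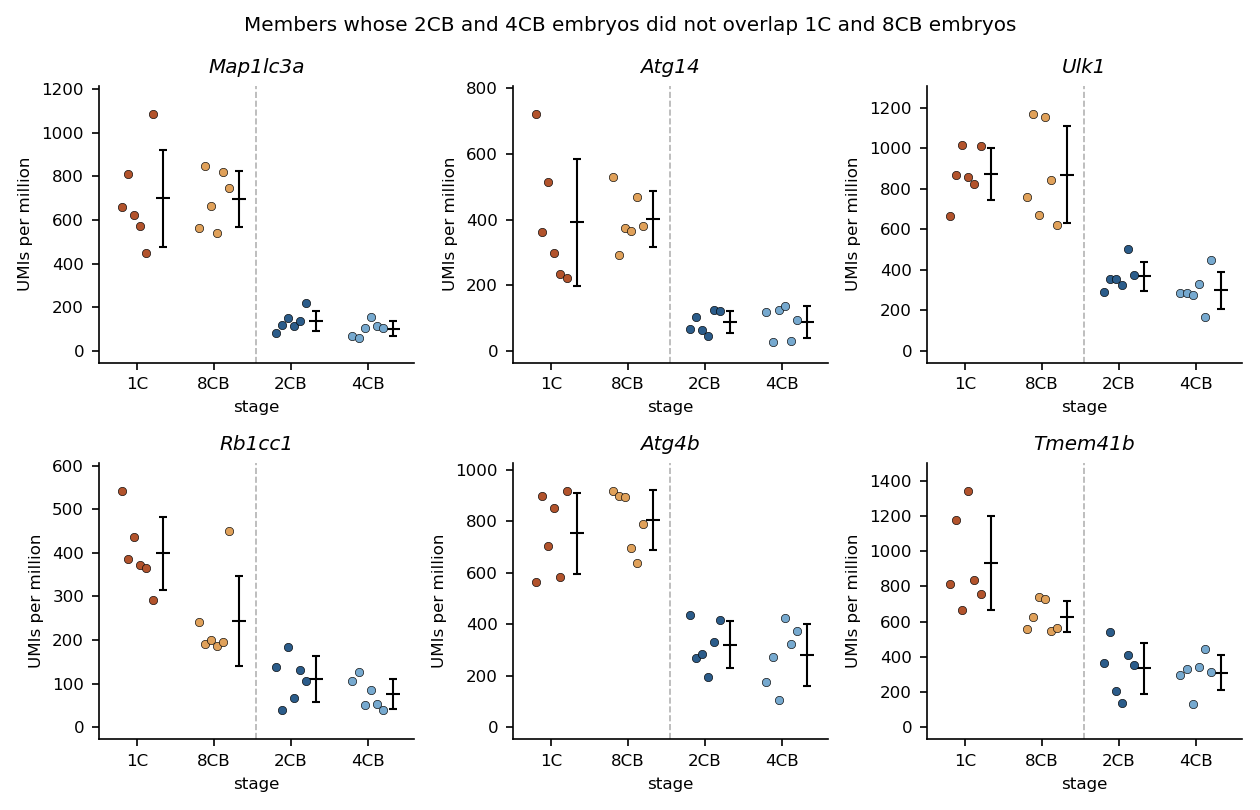
CPM (y axis) in each embryo by stage (x axis, 1 point per embryo, 6 per stage, bars are mean ± SD) for the 6 genes whose pools did not overlap. The dashed line divides the library pools, and 2CB and 4CB points lie below all 1C and 8CB points in each panel.

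For membrane supply, ATG2 proteins carry lipid to the growing membrane, VMP1 and TMEM41B scramble lipid in the endoplasmic reticulum, and the WIPI proteins (Wipi1, Wipi2, Wdr45b and Wdr45) read PI3P. With 2CB and 4CB set against 1C and 8CB embryos, all 7 tested genes of the step were called lower, against 24% of all genes. Without Atg2b, which passed the filter through 1C and 8CB embryos, this was 6 of 6, against 27.7% of the genes passing in both pools. The log2 differences ran from -0.63 for Wdr45b to -1.63 for Wdr45. In 2CB against 1C and in 4CB against 8CB embryos, 5 of the 7 were called lower each time. Wdr45b was called in 2CB against 1C (-1.47). In 4CB against 8CB embryos it was not (0.21, adjusted p = 0.734 by edgeR). Atg2a was called in 4CB against 8CB (-1.34) and not in 2CB against 1C (-0.43, adjusted p = 0.325 by edgeR). Atg2b was called in neither. Wdr45 (ENSMUSG00000039382.12, chrX:7714333-7728206, + strand), whose product is WIPI4, was at 24.3 to 133 (median 73.8) in 1C, 56.1 to 249 (median 118) in 8CB, 27.9 to 64.1 (median 35) in 2CB and 0 to 38.3 (median 28.7) in 4CB embryos. Pools overlapped, and the log2 difference was -1.63 ± 0.30 (SE, adjusted p = 4.07e-05). Tmem41b (ENSMUSG00000047554.14, chr7:109972187-109986929, - strand), named with Ulk1 for its lack of overlap after the values were seen, was at 668 to 1343 (median 825) in 1C, 546 to 738 (median 596) in 8CB, 138 to 541 (median 357) in 2CB and 132 to 444 (median 324) in 4CB embryos. Its log2 difference was -1.27 ± 0.20 (SE, adjusted p = 7.80e-06).
Wipi2, which recruits the conjugation enzymes, changed by -1.27 ± 0.19 (SE, adjusted p = 2.60e-06) and Vmp1 by -1.45 ± 0.24 (SE, adjusted p = 1.15e-05). The lipid carriers Atg2a and Atg2b changed by -0.89 ± 0.24 (SE, adjusted p = 0.00293) and -1.14 ± 0.42 (SE, adjusted p = 0.0249). Atg2b has exons over those of Gskip on the other strand, which had 234 UMIs, and Rb1cc1, Map1lc3b and Sqstm1 overlap opposite-strand genes with 12, 20 and 10 UMIs in all. The strand setting of the counting is not given in the sources used here. The call of Wdr45b, at -0.63 ± 0.29 (SE, adjusted p = 0.0707), was lost without 8CB embryo 4 (adjusted p = 0.116).
Atg9a and Wipi1 did not pass the filter. Atg9a, the scramblase that arrives on vesicles, had 15 and 25 UMIs in 1C and 8CB against 4 and 1 in 2CB and 4CB embryos, though the latter had more UMIs in all. Wipi1 had 6, 30, 22 and 9 UMIs in 1C, 2CB, 4CB and 8CB embryos.

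Of the conjugation enzymes, ATG7 and ATG3 activate and transfer ATG8 proteins, ATG10 serves ATG12, the ATG12-ATG5-ATG16L1 complex places ATG8 on the membrane, and ATG4 proteases trim it. Atg4b (ENSMUSG00000026280.17, chr1:93751500-93790610, + strand), the main ATG4 protease, was at 563 to 918 (median 776) in 1C, 639.6 to 917 (median 841) in 8CB, 194 to 434 (median 308) in 2CB and 106 to 424 (median 299) in 4CB embryos. The pools did not overlap, and the log2 difference was -1.41 ± 0.19 (SE, adjusted p = 7.43e-07). Atg7 (ENSMUSG00000030314.16, chr6:114643097-114860614, + strand), the shared activating enzyme, was lower, with a log2 difference of -1.14 ± 0.25 (SE, adjusted p = 0.000323), with overlap.
The partners of the ATG12-ATG5 conjugate were not called. Atg5 was at 41.2 to 210.4 (median 94.2) in 1C, 9.34 to 127 (median 73.5) in 8CB, 37.1 to 130.0 (median 55.1) in 2CB and 69.8 to 179 (median 87.1) in 4CB embryos, and its log2 difference was -0.03 ± 0.32 (SE, adjusted p = 0.948) with a 95% interval -0.69 to 0.63. Atg12 was at 46.7 to 219.6 (median 106) in 1C, 70.5 to 239.7 (median 111) in 8CB, 51.1 to 111 (median 102) in 2CB and 59.3 to 148 (median 80.5) in 4CB embryos, and its log2 difference was -0.46 ± 0.26 (SE, adjusted p = 0.143) with a 95% interval -0.99 to 0.07. It was called lower on leaving out any one of 7 embryos (1C 4, 5 and 6, 2CB 2, 4CB 3, and 8CB 5 and 6, with a lowest adjusted p of 0.0574).
The other 6 genes of the step did not pass the filter. Atg4c, an ATG4 paralogue, had 3 and 11 UMIs in 1C and 8CB but 106 and 49 in 2CB and 4CB embryos, the direction opposite to Atg4b. Atg16l1 had 46, 102, 60 and 21 UMIs in 1C, 2CB, 4CB and 8CB embryos, and Atg3 18, 58, 61 and 18. Atg4a, which has a pseudogene copy (Atg4a-ps) in the annotation, Atg4d and Atg10 had 34, 72 and 54 UMIs over all embryos.

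Among all 41 genes in a fit without the filter, 19 were called lower and 1 higher, against 9.61% and 14.2% of 23171 genes. These values were added after the data were seen, and of the 15 genes that had not passed the filter they called Atg9a lower (log2 difference -3.74 ± 0.78, SE, adjusted p = 2.60e-05 by edgeR) and Atg4c higher (2.44 ± 0.58, adjusted p = 0.000317 by edgeR). Optn was next, at 1.5 ± 0.71 (adjusted p = 0.131 by edgeR), and the other 12 had adjusted p of 0.402 or more. With 5 UMIs of Atg9a in all 2CB and 4CB embryos and 14 of Atg4c in all 1C and 8CB embryos, the sizes of these changes are poorly determined.

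Of the ATG8 family, LC3A and LC3B (Map1lc3a and Map1lc3b) and the GABARAP proteins (Gabarap, Gabarapl1 and Gabarapl2) are the ubiquitin-like proteins set onto the membrane, where they hold cargo receptors and serve growth and closure. All 5 were tested: 3 were lower, 1 higher and 1 not called, against 24% lower and 31.3% higher of all genes. Gabarapl1, 1 of the 3, passed the filter through 1C and 8CB embryos, and without it 2 of 4 were lower, against 27.7% of the genes passing in both pools. Map1lc3a (ENSMUSG00000027602.9, chr2:155276297-155278073, + strand) was at 449 to 1085 (median 640.2) in 1C, 540.4 to 847 (median 705) in 8CB, 81.3 to 219 (median 129) in 2CB and 57.4 to 156 (median 106) in 4CB embryos. Every 2CB and 4CB embryo lay below every 1C and 8CB embryo, with 16.7% of their level in the fit. The log2 difference of -2.59 ± 0.20 (SE, adjusted p = 1.75e-11) was the largest in size of the 26 genes.
Map1lc3b was at 72.2 to 119.5 (median 96.7) in 1C, 85.3 to 187 (median 121) in 8CB, 52.1 to 83.6 (median 53.7) in 2CB and 19.1 to 80.5 (median 39.7) in 4CB embryos, and it was lower, with a log2 difference of -1.05 ± 0.22 (SE, adjusted p = 0.000241). Gabarapl1 was at 17.5 to 56.1 (median 43.2) in 1C, 8.53 to 69.9 (median 20.8) in 8CB, 6.19 to 28.7 (median 14.2) in 2CB and 6.59 to 38.3 (median 16.2) in 4CB embryos, and it was lower, with a log2 difference of -1.11 ± 0.35 (SE, adjusted p = 0.00908). Both overlapped between pools.
Gabarapl2 (ENSMUSG00000031950.7, chr8:111940703-111953612, + strand), encoding GATE-16, was at 353 to 467 (median 409) in 1C, 254 to 409 (median 355) in 8CB, 328 to 595 (median 512) in 2CB and 329 to 625 (median 509) in 4CB embryos. Stages overlapped, and the log2 difference was 0.33 ± 0.15 (SE, adjusted p = 0.0815). That call was lost on leaving out any 1 of 22 embryos, with adjusted p up to 0.239, and was kept only without 2CB embryo 6 or 8CB embryo 4. Gabarap was at 27.4 to 113 (median 44.4) in 1C, 42 to 145 (median 57.3) in 8CB, 50.7 to 80.8 (median 66.3) in 2CB and 33.9 to 140.4 (median 75.8) in 4CB embryos, with a log2 difference of 0.13 ± 0.27 (SE, adjusted p = 0.715) that was not called and a 95% interval -0.42 to 0.68.

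The makeup of the family in each embryo, which does not depend on scaling between embryos, differed between the pools. Of the 85 to 1312 ATG8 family UMIs of an embryo, Map1lc3a made up 44.6 to 64.5% (median 50.5%) in 1C, 44.8 to 62.4% (median 53.9%) in 8CB, 11 to 31.9% (median 16.1%) in 2CB and 9.6 to 18.8% (median 14%) in 4CB embryos. Gabarapl2 made up 24.9 to 36% (median 33.1%) in 1C, 21.2 to 34% (median 28%) in 8CB, 47.6 to 70.7% (median 66.7%) in 2CB and 56.5 to 73.1% (median 67.6%) in 4CB embryos. For both genes the shares of the pools did not overlap, and the 2 stages within a pool did. Since the shares of an embryo sum to 100%, a lower share of Map1lc3a leaves a higher one to the other genes, so that the opposite directions are not separate results. The share of Map1lc3b overlapped among all stages, at 5.39 to 9.56% (median 7.82%) in 1C, 5.81 to 15.5% (median 10%) in 8CB, 6.55 to 9.6% (median 7.65%) in 2CB and 2.73 to 11.1% (median 6.25%) in 4CB embryos. A share of UMIs compares embryos and does not give the relative abundance of the proteins.

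**Figure D3:**
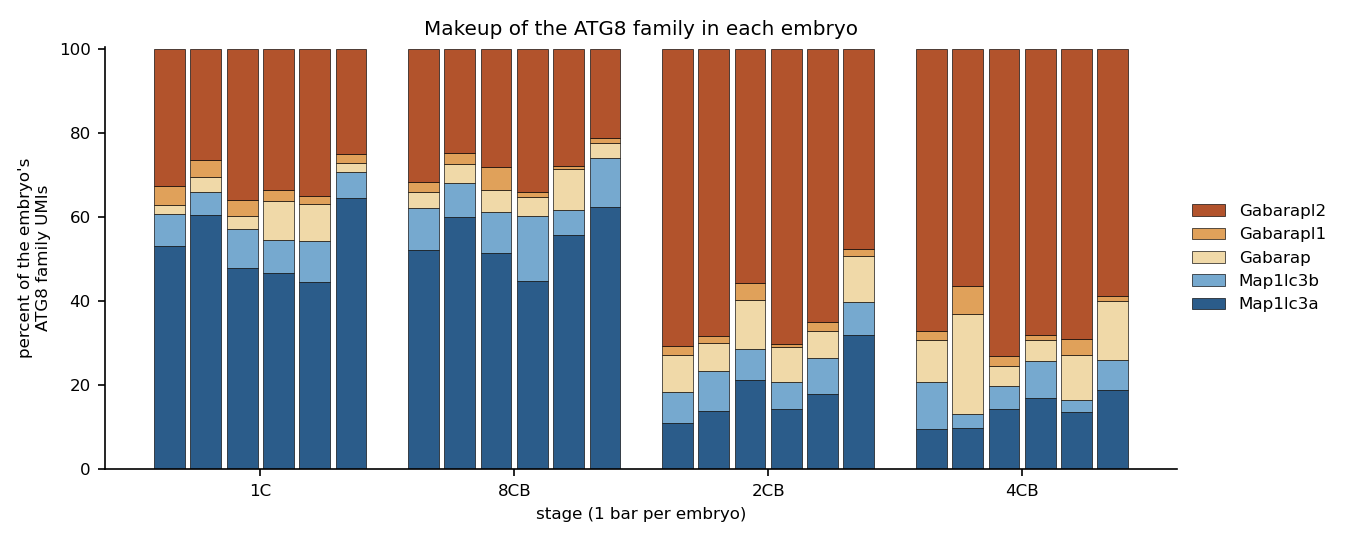
Percent of each embryo's ATG8 family UMIs (y axis) that came from each of the 5 genes, 1 bar per embryo, grouped by stage (x axis). Map1lc3a (dark blue) fills 44.6 to 64.5% of the 1C and 8CB bars and 9.60 to 31.9% of the 2CB and 4CB bars, while Gabarapl2 (dark orange) is the largest part of each 2CB and 4CB bar.

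Cargo receptors link the membrane to its load. Sqstm1 (p62), Nbr1, Tax1bp1 and Optn encode receptors that bind ubiquitinated cargo, and Calcoco1 one for the endoplasmic reticulum and Golgi. Of the 4 tested, 3 were lower and 1 was not called, against 24% lower and 31.3% higher of all genes. Tax1bp1 (ENSMUSG00000004535.12, chr6:52713729-52766780, + strand) had the largest change, with 179 to 382 (median 358) in 1C, 124 to 465 (median 212) in 8CB, 63 to 153 (median 100.6) in 2CB and 32.9 to 140.4 (median 84.6) in 4CB embryos, and a log2 difference of -1.65 ± 0.24 (SE, adjusted p = 1.54e-06). Between the pools only levels from 124.5 to 153 were shared.
Calcoco1 (ENSMUSG00000023055.9, chr15:102706779-102722178, - strand) was at 20.6 to 128 (median 70.4) in 1C, 34.1 to 103 (median 83.3) in 8CB, 17.8 to 44.3 (median 24.4) in 2CB and 3.62 to 45.2 (median 25) in 4CB embryos, and it was lower, with a log2 difference of -1.48 ± 0.33 (SE, adjusted p = 0.000402). Sqstm1 (ENSMUSG00000015837.15, chr11:50199366-50210827, - strand) was at 113 to 426 (median 158) in 1C, 59.7 to 286 (median 212) in 8CB, 39 to 146 (median 61.4) in 2CB and 6.59 to 303 (median 61.3) in 4CB embryos, and it was lower, with a log2 difference of -1.15 ± 0.35 (SE, adjusted p = 0.00692). One 4CB embryo, at 303 CPM, was above every 2CB and 8CB embryo and above the median of 1C embryos. It held 343 of the 428 Sqstm1 UMIs of all 4CB embryos.
Nbr1 (ENSMUSG00000017119.19, chr11:101552149-101581951, + strand), which works beside p62, was at 0 to 52 (median 29.6) in 1C, 0 to 62.3 (median 34.9) in 8CB, 24 to 55.1 (median 34.9) in 2CB and 25.4 to 81.7 (median 38.1) in 4CB embryos. It had 0 UMIs in some 1C and 8CB embryos, and its log2 difference of 0.31 ± 0.37 (SE, adjusted p = 0.51) was not called, with a 95% interval -0.44 to 1.07. Optn had 4 and 5 UMIs in 1C and 8CB and 59 and 17 in 2CB and 4CB embryos. The tethering factor gene Epg5, which acts in fusion with the lysosome, had 6, 22, 15 and 16 UMIs in 1C, 2CB, 4CB and 8CB embryos.

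**Figure D4:**
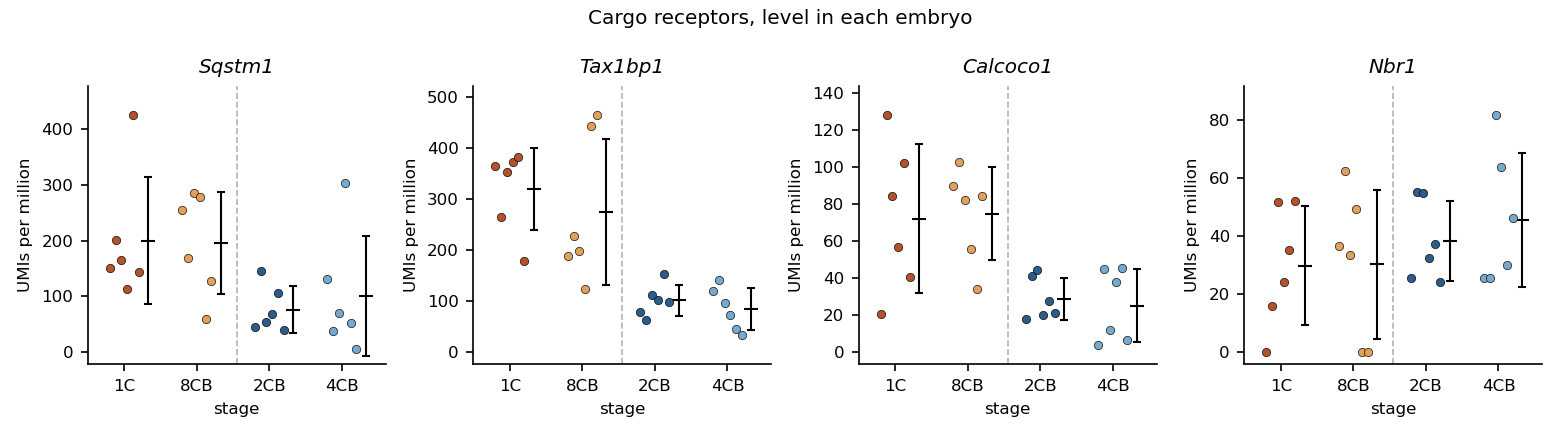
CPM (y axis) of the 4 tested cargo receptor genes in each embryo by stage (x axis, 1 point per embryo, 6 per stage, bars are mean ± SD, dashed line between library pools). Tax1bp1, Calcoco1 and Sqstm1 are lower to the right of the line, apart from 1 high 4CB embryo for Sqstm1. Nbr1, which was not called, overlaps throughout.

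Within a library pool, pool is no difference between the stages compared. In 8CB against 1C embryos 0 of the 26 genes were called by edgeR, against 0% of all genes (0 of 5940), while 2 of the 26 and 550 of all had an unadjusted p below 0.05. These were Wdr45b, at a log2 difference of -1.06 ± 0.41 (SE, adjusted p = 0.396), and Rb1cc1, at -0.73 ± 0.32 (SE, adjusted p = 0.469). The 26 differences ran from -1.06 (Wdr45b) to 0.63 (Wdr45), with a median of 0.04. For Map1lc3a the log2 difference of 8CB against 1C was -0.01 (95% interval -0.54 to 0.52).
In 4CB against 2CB embryos 0 of the 26 were called by edgeR, against 0.0337% of all genes, and 1 of the 26 and 263 of all had an unadjusted p below 0.05. It was Atg2a, with -0.97 ± 0.34 (SE, adjusted p = 0.9999). The 26 differences ran from -0.97 (Atg2a) to 0.63 (Wdr45b), with a median of -0.05, and Map1lc3a was at -0.44 (95% interval -0.996 to 0.12). DESeq2 also called 0 of the 26 in both comparisons, against 0.724% (43) of all genes for 8CB against 1C and 0.186% (10) for 4CB against 2CB, so that few genes of any kind were called within a pool. With 6 embryos a stage the intervals for single genes were wide, and changes as large as these intervals allow were not excluded.

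Across pools, 2 comparisons share no embryo. Both set the same 2 pools against each other, so that calls shared by both cannot be told apart from a difference between pools. In 2CB against 1C embryos, 17 of the 26 genes were called, all of them lower, against 41.5% of all genes (24% higher and 17.5% lower). In 4CB against 8CB embryos, 15 of the 26 were called, all lower, against 40.2% of all genes (23.2% higher and 17% lower). Of the 24 genes that passed the filter in each pool alone, 16 were called in the first and 15 in the second, all lower, against 19.7% lower of the 3841 such genes in each. Called lower in both were 14 genes (Ulk1, Rb1cc1, Atg101, Atg14, Wipi2, Wdr45, Vmp1, Tmem41b, Atg4b, Atg7, Map1lc3a, Map1lc3b, Tax1bp1 and Calcoco1) and higher in both 0, against 11% and 16.2% of all genes. Map1lc3a changed by -2.37 ± 0.27 (SE, adjusted p = 1.72e-07) in the first and by -2.80 ± 0.28 (SE, adjusted p = 2.34e-08) in the second, and Atg14 by -2.15 ± 0.35 (SE, adjusted p = 2.86e-05) and -2.16 ± 0.36 (SE, adjusted p = 4.23e-05). Sqstm1 was called in the first (-1.35 ± 0.49 SE, adjusted p = 0.0323) and not in the second (-0.95 ± 0.49 SE, adjusted p = 0.138). The difference between these 2 comparisons was tested as well, and 0 of the 26 and 0% of all genes were called by edgeR and 0 of the 26 and 0.634% of all (34) by DESeq2, and 2 of the 26 (Wdr45 and Wdr45b) and 532 of all had an unadjusted p below 0.05.

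**Figure D5:**
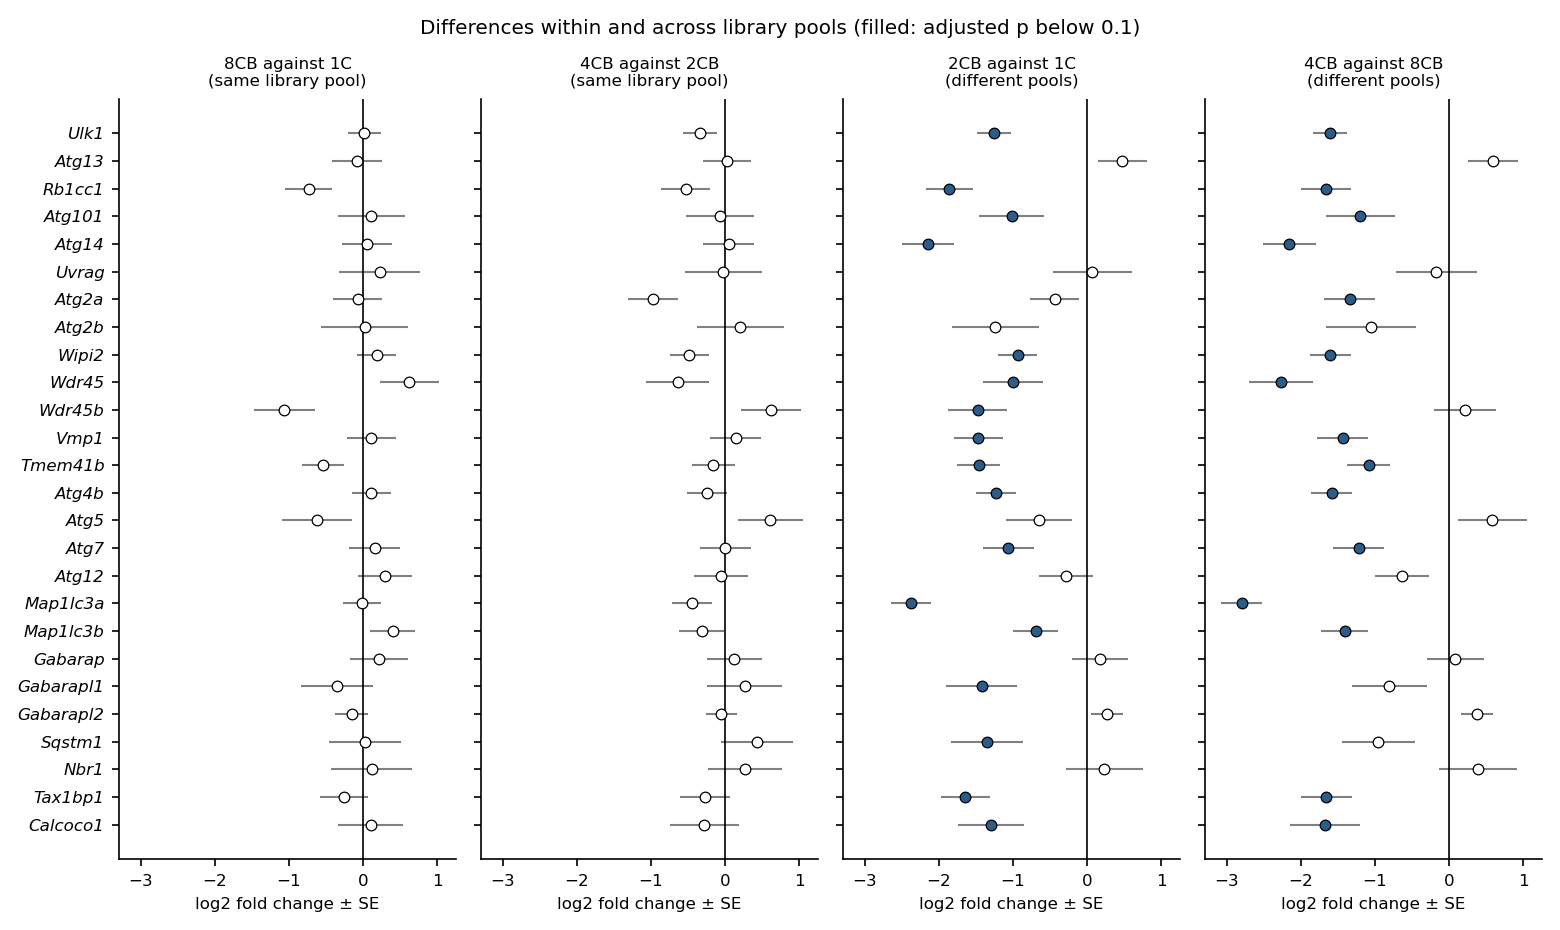
Log2 fold change ± SE (x axes) of the 26 tested genes (rows) in 2 comparisons within a library pool and 2 across pools. Filled points are called at an adjusted p below 0.1: 0 within pools, 17 for 2CB against 1C and 15 for 4CB against 8CB.

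Genes that control or complete autophagy were counted from 5 further lists of 56 genes, of which 34 were tested. Between the 2 pools, 7 were higher in 2CB and 4CB embryos, 11 lower and 16 not called. Over all genes 31.3% were higher and 24% lower, and the counts of each list below are to be read against these shares. Of the 34, 24 passed the filter in each pool alone, and 4 of these (16.7%) were higher and 7 (29.2%) lower, near the 22.8% and 27.7% of all genes that passed in both. Of the 5 tested transcription factor genes, 3 were higher and 0 lower, and of the 3 that passed in each pool alone 1 was higher and 0 lower. Tfeb, whose product turns on lysosomal and autophagy genes, was at 6.86 to 96.2 (median 27.7) in 1C, 3.04 to 42.3 (median 23.9) in 8CB, 80.3 to 158 (median 128) in 2CB and 97.8 to 198 (median 124) in 4CB embryos. Its log2 difference was 2.10 ± 0.31 (SE, adjusted p = 2.69e-06), and it passed the filter through 2CB and 4CB embryos, where it is higher. Zkscan3, described as a repressor of such genes, had the largest difference of the list, at 2.62 ± 0.60 (SE, adjusted p = 0.000682), from 2 UMIs in all 8CB and 18 in all 1C embryos against 125 in 2CB and 59 in 4CB. It passed the filter in neither pool alone, and with so few UMIs in 1C and 8CB embryos the size of its change is poorly determined.
Of 9 tested nutrient-sensing kinase genes, 1 was higher (Mtor, 0.72 ± 0.34 SE, adjusted p = 0.078) and 4 were lower, the largest change being in Akt1s1, an inhibitory subunit of the mTOR complex, at -1.14 ± 0.29 (SE, adjusted p = 0.00178). Of 9 tested fusion genes, 1 was higher (Rab7, a GTPase of late endosomes, 0.75 ± 0.26 SE, adjusted p = 0.0161) and 2 were lower, led by the SNARE gene Snap29 at -1.04 ± 0.37 (SE, adjusted p = 0.021). Of 10 tested genes for receptors of organelles, 2 were higher and 5 lower. Rtn3, a receptor for tubules of the endoplasmic reticulum, was at 0 to 67.1 (median 43.3) in 1C, 8.53 to 80.9 (median 23.6) in 8CB, 71.1 to 277 (median 167) in 2CB and 158 to 249 (median 225) in 4CB embryos and changed by 2.33 ± 0.32 (SE, adjusted p = 6.79e-07). Ccpg1, another receptor for that organelle, changed by -1.92 ± 0.40 (SE, adjusted p = 0.000236). The 1 other core factor gene that was tested was not called. Of the genes that passed the filter in each pool alone, 0 of 5 kinase genes were higher and 3 lower, 1 of 8 fusion genes was higher and 1 lower, and 2 of 7 receptor genes were higher and 3 lower. Mtor passed the filter through 2CB and 4CB embryos, and Snap29 and Ccpg1 through 1C and 8CB embryos, in each case those where the gene is higher.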

How the data were processed

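RNA of 24 single embryos was measured, 6 each of 1C, 2CB, 4CB and 8CB, in 2 library pools of 12 given by the sample labels. The deposited values are whole-number UMI counts per gene and embryo. According to the methods of the study, the authors aligned reads to GRCm38 with HISAT2 (2.2.6), counted with HTSeq (0.6.1) with 1 consensus read for each UMI, and tested the counts, after a normalization taken from earlier work, with DESeq2 (1.10.1). The header of the table has the layout of featureCounts, and the annotation release and strand setting are not given in the sources used here. Counts of near-identical copies can be split, a 3′ count does not see transcripts that end outside the annotated gene, and the largest count (53029) exceeds the number of distinct UMIs possible at 6 bases (the usual CEL-Seq2 length), so counting intervals are not given. A further 24 columns, named Morula, belong to no sample listed here and were left out. Symbols came from GENCODE M21 (51633 of 52366 genes), and 48626 genes had the same start and end there.

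TMM factors, from 0.928 to 1.07, were computed in edgeR 4.0.16 under R 4.3.3, and counts were filtered with filterByExpr by stage (5940 genes kept) and fitted with a quasi-likelihood model of 1 mean per stage over all 24 embryos, which share 1 estimate of spread (common biological coefficient of variation 0.442). There were 7 tests, each called at a Benjamini-Hochberg adjusted p below 0.1 over all 5940 genes. SEs were derived from F, and intervals are 95%. Every 1C or 8CB against 2CB or 4CB comparison is also one of pools, so pool could not be a term. The fit was tested on simulated data. Total UMIs ran from 70941 to 1507471 per embryo, and low totals limit genes with few UMIs.

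Genes were to be named by rule: the members of each step with the largest called change each way. Each tested ATG8 family gene and cargo receptor was to be given in full, and the others by ranges. For the further lists the rule was the largest called change each way. Outside this rule, values were given for Ulk1, Atg101, Uvrag, Atg2a, Atg2b, Wipi2, Wdr45b, Vmp1, Tmem41b, Atg5, Atg7 and Atg12. Of the further lists, Tfeb was given outside it. Members and lists were chosen with earlier results of these data known. Alternatives were DESeq2 1.42.0, its size factors, no filter, a block for the replicate number, a stricter call (adjusted p below 0.05), every embryo thinned to 70941 UMIs, fits to the compared embryos alone, and leaving out each embryo. Thinning on the genes kept at full depth, unfiltered values for genes that had not passed, and counts over genes that pass the filter in each pool alone were added after seeing the data. For 36 same-numbered pairs the correlation of deviations from stage means averaged -0.0156 (-0.248 to 0.224), and embryos were treated as unpaired. Promoters are RefSeq windows of GRCm38.p6. Figures were drawn with matplotlib 3.10.9. Tp53inp2, in the further lists, was not analysed here.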

Additional observations from a re-analysis of the deposited data

Results flagged for a closer look

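Log2 levels of the 26 tested autophagy genes were searched within each stage for 1 embryo far from the other 5, by the gap to its neighbour over the whole range of the stage (Dixon's 95% limit for 6 values). Of 104 groups checked, 5 passed, and chance passes about 1 in 20. Rb1cc1 was at 451 CPM in 8CB embryo 6 and at 187 to 241 in the other 8CB embryos (gap over range 0.717). Atg101 had 0 UMIs in 1C embryo 4, with the others at 56.1 to 106 CPM (0.806). Wdr45 had 0 UMIs in 4CB embryo 5, with the others at 25.4 to 38.3 CPM (0.832). Wdr45b was at 8.53 CPM in 8CB embryo 5, with the others at 34.2 to 55.7 (0.688). Tmem41b was at 132 CPM in 4CB embryo 3, with the others at 297 to 444 (0.676). The 5 flags fell in 5 embryos. Without the embryo concerned, each gene was still called lower by edgeR when 2CB with 4CB were set against 1C with 8CB embryos. The log2 differences were -1.69 for Rb1cc1, -1.57 for Wdr45 and -1.23 for Tmem41b. Atg101 was at -1.25 (adjusted p = 0.00032 by edgeR) and Wdr45b at -0.75 (adjusted p = 0.0275 by edgeR).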

How the results depend on the processing

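Of the 19 genes called lower in 2CB and 4CB embryos, 16 kept direction and call in every alternative that tested them. The exceptions were Wdr45b, Atg2b and Gabarapl1, which were not called after thinning on the genes kept at full depth (log2 differences of -0.43, -1.34 and -0.83, with adjusted p = 0.462, 0.103 and 0.202 by edgeR, against -0.63, -1.14 and -1.11 at full depth), and Wdr45b was not called without a filter, at an adjusted p below 0.05 or without 8CB embryo 4. Thinning to the smallest total left 14 of the 26 genes to test, and 11 were called among the 4 stages (52.1% of all genes), 11 lower and 2 higher in 2CB and 4CB embryos, and 10 in 2CB against 1C (45.7% of all). Fewer genes were tested there, and over its 2021 genes the median difference was -0.05 in place of 0.12, with 29.2% called lower and 29.9% higher. On the genes kept at full depth, thinning called 16 lower and 0 higher, against 18.9% and 24.4% of all genes. The 2 genes called higher, Atg13 and Gabarapl2, were not called without a filter, where the 1 gene called higher was Atg4c (14.2% of all genes were higher). They were also not called at an adjusted p below 0.05 or with the replicate block. In both settings 0 were higher, against 27.4% and 30.6% of all genes. At an adjusted p below 0.05, 18 were lower, against 21.2% of all genes. Leaving out each embryo gave 0 to 2 higher, 18 to 20 lower, 18 to 19 among the 4 stages, 15 to 18 for 2CB against 1C and 15 to 17 for 4CB against 8CB, while over all genes 28.3 to 30.8% were called higher, 23.5 to 25.4% lower, 44.6 to 48% among the stages, and 36.8 to 42.3% and 36.1 to 40.3% in the last 2 comparisons. In 4CB against 8CB, 1 gene was called higher with DESeq2 and 1 without 8CB embryo 4 (25.8% and 20.7% of all genes). In 2CB against 1C, 1 was called higher without a filter (8.97% of all genes). Within pools, and for the difference between the comparisons across pools, 0 were called in each alternative run. Over all genes, at most 0.724% were called there (8CB against 1C with DESeq2).

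Embryos shared only a number, and the replicate block gave 19 lower genes, 18 among the 4 stages, 15 in 2CB against 1C and 16 in 4CB against 8CB, against 23%, 43.8%, 39.6% and 37.8% of all genes. Differences near 0 that were not called changed sign. Between the pools, Uvrag went to 0.0052 with DESeq2, 0.0046 with its size factors and 0.0288 with the block (-0.28 to 0.17 on leaving out embryos). Atg5 went to 0.0055 with DESeq2, 0.0146 with its size factors and 0.033 on thinning the genes kept (-0.22 to 0.11 on leaving out embryos), and Gabarap to -0.14 on thinning the genes kept (-0.065 to 0.24). For 8CB against 1C, Map1lc3a went to 0.0182 with DESeq2, 0.0205 with its size factors, 0.0081 without a filter, 0.0319 with the block and 0.0069 with only the embryos compared (-0.12 to 0.20 on leaving out embryos). The cause of these changes was not tested. The 15 genes that did not pass the filter had too few UMIs to be tested in the filtered fit, and no result across pools can be told apart from the pools.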
